A study of Mus musculus with 20 samples.

Results

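Expression of 10 genes of tumor macrophages, Csf1r, Csf1, Cd68, Emr1, Mrc1, C1qa, C1qb, C1qc, Lyz2 and Cd14, was examined in 20 mouse breast tumors. The genes were chosen by name, and each was found under its own symbol among the 43346 genes of the count table. The tumors arose spontaneously in female [BALB/c-neuT x FVB/J] F1 mice up to 20 weeks of age, 1 tumor from each of 20 mice. Fathers were BALB/c males that carried neuT, an activated rat Her2/neu oncogene driven by the MMTV promoter in mammary epithelium, and mothers were wild-type FVB/J, so that every tumor shares this driver and no transgene-free or normal gland was compared. Sample names place 9 tumors in a group Lo and 11 in a group Hi, whose meaning is not given in the sources used here, and tumors are called here by this name and number. RNA came from a small frozen piece of each tumor and holds all of its cell types, so that fewer macrophages and less of an RNA per macrophage cannot be told apart.

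Macrophages in a tumor derive largely from blood monocytes and from cells that already resided in the gland. They need signals through the receptor tyrosine kinase encoded by Csf1r, whose ligands are encoded by Csf1 and Il34, and Csf1 is also made by tumor and stromal cells. Emr1 (Adgre1) encodes the F4/80 surface antigen, Cd68 a glycoprotein of lysosomes, Mrc1 the mannose receptor, and C1qa, C1qb and C1qc the chains of complement C1q, which tissue macrophages secrete. Lyz2 encodes lysozyme M of macrophages and neutrophils, and Cd14 the co-receptor that hands lipopolysaccharide to Tlr4.

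RefSeq promoter sequences (GRCm38.p6) were matched by symbol for 6 of the 10 genes, Csf1, Cd68, Mrc1, C1qb, C1qc and Lyz2. The 250 bases before the start are shown for the receptor ligand Csf1, for C1qb, which varied with Csf1r between tumors, and for Cd68, which did not pass that test. Capitals mark the letters GGAAGT or, on the other strand, ACTTCC, a core that the macrophage factor PU.1 (gene Spi1) can bind, and this motif was chosen after the promoters had been seen.
C1qb (chr4:136886201-136886450, minus strand): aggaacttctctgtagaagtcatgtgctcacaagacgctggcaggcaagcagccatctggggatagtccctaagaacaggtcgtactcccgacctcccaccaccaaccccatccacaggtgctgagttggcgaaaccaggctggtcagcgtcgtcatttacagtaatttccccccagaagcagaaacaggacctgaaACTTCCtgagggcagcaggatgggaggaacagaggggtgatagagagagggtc
Csf1 (chr3:107760470-107760719, minus strand): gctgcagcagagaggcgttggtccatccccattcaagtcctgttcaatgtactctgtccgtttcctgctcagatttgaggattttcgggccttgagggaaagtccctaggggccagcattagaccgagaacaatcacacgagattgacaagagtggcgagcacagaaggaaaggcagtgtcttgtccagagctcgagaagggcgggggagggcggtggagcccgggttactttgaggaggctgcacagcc
Cd68 (chr11:69666171-69666420, minus strand): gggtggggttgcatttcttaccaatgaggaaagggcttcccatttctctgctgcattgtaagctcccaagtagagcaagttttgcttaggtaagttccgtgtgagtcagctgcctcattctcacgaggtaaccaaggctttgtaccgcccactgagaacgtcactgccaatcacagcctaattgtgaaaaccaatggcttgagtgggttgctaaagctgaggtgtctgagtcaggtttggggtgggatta
In C1qb the letters lay 53 bases before the start, and they were also present in C1qc, Mrc1 and Lyz2, 195, 211 and 100 bases before the start. They were not in the windows of Csf1 and Cd68, which, like Mrc1 and Lyz2, did not pass the test against Csf1r. Of all 32851 RefSeq promoters, 19.7% hold these letters on at least 1 strand, and a match is a description of the sequence and not of binding.

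In mm10 coordinates, C1qb (chr4:136880129-136886187), C1qc (chr4:136889804-136893065) and C1qa (chr4:136895917-136898803) lie next to each other on the minus strand of Chr4, and the other 7 genes are spread over Chr2, Chr3, Chr10, Chr11, Chr17 and Chr18. Csf1r (chr18:61105572-61132149, plus strand) and Cd14 (chr18:36725074-36726736, minus strand) share Chr18. In a later annotation of the same build, the exons of Csf1r share 873 bases with Hmgxb3 on the opposite strand, and the strand setting of the count is not given in the sources used here, so reads there are uncertain. The Lyz2 count (chr10:117277334-117282274) is also uncertain to the extent that reads match its near-identical copy Lyz1.

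The total count over genes ranged from 38765682 to 65465755 per tumor. All 10 genes were detected in every tumor, and the lowest count of any of the 10 genes in any tumor was 432, for Mrc1. Together they took between 0.0502% and 0.103% of the reads of a tumor. Yam1 and AY036118, which lie over a ribosomal RNA gene, took between 6.29% and 27.7%, and the r of the 10 genes with this share was between -0.37 for C1qc and 0.22 for Mrc1. Comparisons between tumors use CPM, counts scaled to library size, after TMM normalization, and comparisons between genes use RPKM, which also divides by gene length.

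By mean RPKM, Cd14 (125 ± 54.7, SD, n = 20) and Lyz2 (119 ± 23.5) were the most abundant of the 10 genes. They were followed by C1qa (91.1 ± 15.7), C1qb (71 ± 11.5) and C1qc (32.7 ± 5.95), then by Cd68 (13.9 ± 2.04) and Csf1r (12.6 ± 1.92). Csf1 (6.24 ± 0.985), Emr1 (5.48 ± 0.925) and Mrc1 (2.59 ± 0.912) had the lowest levels. Some neighbors in this order changed places in part of the tumors. Cd14 was above Lyz2 in 9 of 20 tumors, Cd68 above Csf1r in 15 and Csf1 above Emr1 in 17, whereas Csf1r was above Csf1 in every tumor, with a mean log2 ratio of RPKM of 1.01 ± 0.16 (SD, n = 20).

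**Figure D1:**
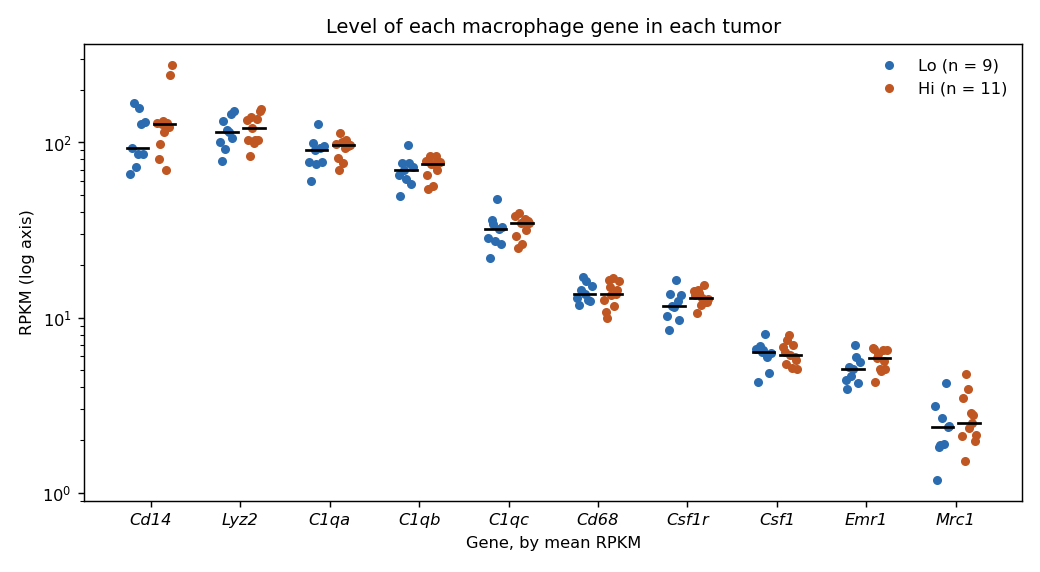
Level of each of the 10 genes (RPKM, logarithmic axis) in each tumor, with Lo tumors (n = 9) in blue, Hi tumors (n = 11) in orange and the median of each group as a black line. Lo and Hi overlap for every gene, and Cd14 and Mrc1 spread most.

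The genes fell into a narrow and a wide range between tumors. The highest tumor had 1.63 times the CPM of the lowest for Csf1r and between 1.55 and 1.91 times for Csf1, Cd68, Emr1, the C1q genes and Lyz2. It had 3.74 times for Mrc1 and 4.24 times for Cd14. On the log2 scale the SD between tumors was 0.17 for Csf1r, below the median of 0.25 over the 18883 genes tested, and 0.51 for Mrc1 and 0.55 for Cd14, above 80.7% and 83.4% of these genes.

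Tumor Lo 3 had the lowest CPM of 8 of the 10 genes, the exceptions being Cd68 and Cd14. Its total count of 57411377 was above the median, and it also had the lowest summed CPM of 6 of 20 marker lists, among them the pan-leukocyte, fibroblast and endothelial lists. Tumor Hi 6 had the highest CPM of 5 genes (Csf1, Cd68, Mrc1, C1qa and C1qb). Because Lo 3 was lowest for most of the 10 genes, correlations with Csf1r are also given without Lo 3.

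**Figure D2:**
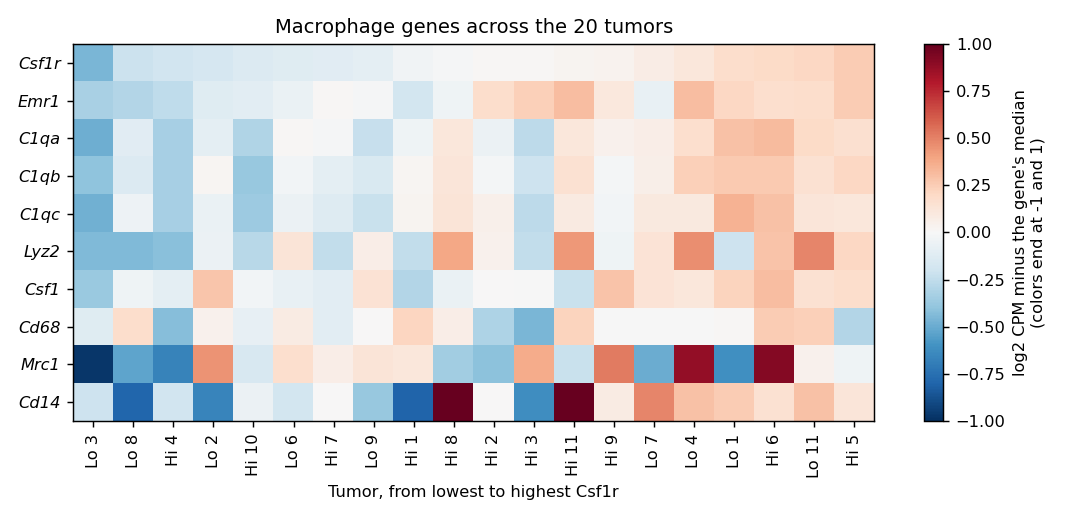
Log2 CPM of the 10 genes relative to the gene's median over the 20 tumors (color, ending at -1 and 1), with tumors ordered from lowest to highest Csf1r. Emr1 and the C1q genes follow the order of Csf1r, from Lo 3 at the left to Hi 5 at the right, while Cd68, Mrc1 and Cd14 follow it less closely.

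The names Lo and Hi were the only grouping the labels gave, and none of the 10 genes passed the test between them. The CPM of Csf1r was 45 at the lowest, 57.8 at the median and 70.7 at the highest in Lo, against 53.8, 62.2 and 73.6 in Hi. The ranges of the groups overlapped for every one of the 10 genes. Log2 fold changes (Hi minus Lo) ran from -0.11 (standard error 0.0909) for Cd68 to 0.27 (standard error 0.231) for Cd14, and all adjusted p were 1 in edgeR's quasi-likelihood test. For Csf1r the fold change was 0.05, with a 95% interval from -0.11 to 0.21, and for Cd14 the interval ran from -0.22 to 0.75. Of all 18883 genes, 0 (0%) passed the threshold of an adjusted p under 0.05, while 1045 had an unadjusted p under 0.05, none of them among the 10. With DESeq2, 1 gene passed (Serpina3g), and without a filter on low counts 1 gene passed (Mir7671), both named after their values were seen.

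Which genes varied with the receptor was tested by Pearson's r of log2 CPM with Csf1r over the 20 tumors, with 100000 permutations of the tumors and Benjamini-Hochberg adjustment over all 18882 other genes. Positive correlations passed for 159 genes (0.842%). Among them were 4 of the 9 other macrophage genes, namely Emr1 and the C1q genes C1qa, C1qb and C1qc. C1qa had r = 0.85 (rho = 0.85, both permutation p = 1e-05, the smallest they can give, adjusted p = 0.00699) and ranked 16 of all genes. C1qb had r = 0.83 (permutation p = 1e-05, rho = 0.81, permutation p = 4e-05), Emr1 r = 0.82 (permutation p = 2e-05, rho = 0.79, permutation p = 9e-05) and C1qc r = 0.81 (permutation p = 2e-05, rho = 0.80, permutation p = 2e-05). The median r of the 9 genes was 0.66, beside a median of -0.01 over all genes tested.

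The r of these 4 genes stayed above 0.7 without the tumors at the ends of the range, but none of them stayed past the adjusted threshold. Without Lo 3 and Hi 5, the tumors farthest from the median of Csf1r, r was 0.79 for C1qa, 0.78 for C1qb, 0.76 for Emr1 and 0.76 for C1qc, and 0 genes passed the adjusted threshold. Within the 9 Lo tumors r was between 0.89 and 0.93 for these genes, and within the 11 Hi tumors between 0.72 and 0.82, with 0 genes past the threshold in either group. The permutations have a smallest p, and adjustment over all genes then lets no gene pass unless several reach very low p together. A count of 0 or of few genes, here and below, is therefore not evidence that a correlation is absent. Without Lo 3 and Hi 5, the permutation p of these 4 genes was itself above the smallest p, from 5e-05 for C1qa to 0.00032 for C1qc. Single tumors moved the number of genes in either direction, which was 176 with all 20. Without Lo 3, 4 genes passed (AF251705, Cxcl16, B130024G19Rik and Rfx8, of which the last pair is named after their values were seen) and none of the 10 did, while all 176 kept their sign. The number was 66 without Hi 5, 95 without Lo 4, 97 without Hi 10, 106 without Lo 1, 108 without Hi 4 and 340 without Lo 11, and the same 4 macrophage genes passed in each of these. Lyz2 passed as well without Lo 1.

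The other 5 genes did not pass the test against Csf1r. The r was 0.66 for Lyz2 (permutation p = 0.0012, rho = 0.74, permutation p = 0.00032, adjusted p of r = 0.0801) and 0.61 for the ligand Csf1 (permutation p = 0.00398, rho = 0.59, permutation p = 0.00628, adjusted p of r = 0.132). Without the 2 farthest tumors it was 0.61 for Lyz2 and 0.43 for Csf1. On log2(RPKM + 1), a scale without TMM, both passed (Csf1 at r = 0.75, Lyz2 at r = 0.62), together with 2087 genes in all. Cd68 had the lowest r of the 9 genes, 0.16 (permutation p = 0.508, rho = 0.19, permutation p = 0.423), after 0.41 for Cd14 (permutation p = 0.0697, rho = 0.68, permutation p = 0.00136) and 0.44 for Mrc1 (permutation p = 0.0508, rho = 0.31, permutation p = 0.176). For Cd14, r was 0.71 within Lo and 0.16 within Hi, and this difference was not tested.

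**Figure D3:**
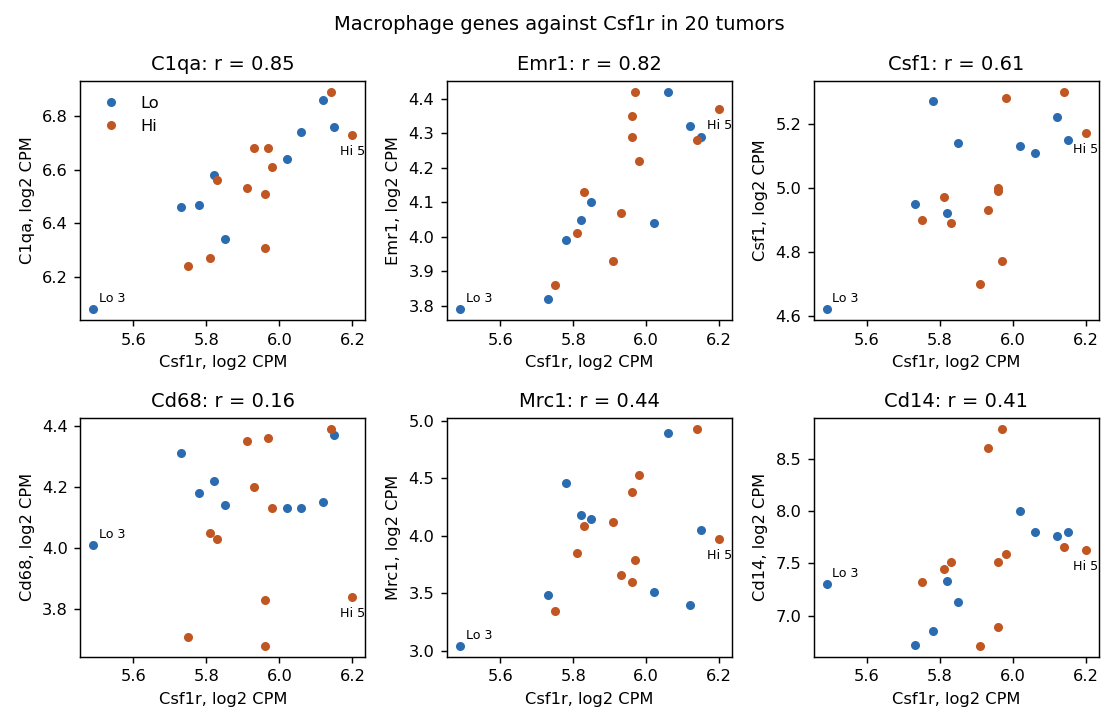
Log2 CPM of C1qa, Emr1, Csf1, Cd68, Mrc1 and Cd14 (vertical axes) against that of Csf1r (horizontal axes), 1 point per tumor, Lo in blue and Hi in orange, with Pearson's r over the 20 tumors above each panel. C1qa and Emr1 lie along a line that Lo 3 extends downward, and Cd68 shows no such line.

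The genes of the C1q chains varied together. C1qa, C1qb and C1qc had r = 0.96 in each of the 3 pairs (rho from 0.93 to 0.95, permutation p = 1e-05 for each r, the smallest they can give), and r stayed at 0.95 without Lo 3 and at 0.94 or above without the 2 farthest tumors. Their RPKM kept nearly fixed ratios. C1qa to C1qb was between 1.18 and 1.37 in all 20 tumors, C1qa to C1qc between 2.57 and 3.03 and C1qb to C1qc between 2.03 and 2.37. For comparison, the ratio of Cd14 to Csf1r ranged from 5.38 to 22 and that of Mrc1 to Csf1r from 0.116 to 0.34. With C1qa, 106 genes were positively correlated (0.561%), with C1qb 100 (0.53%) and with C1qc 42 (0.222%). Next to the other chains, the gene most like C1qa and C1qc was Fcer1g (r = 0.93 with each), the signalling chain of Fc receptors, and the gene most like C1qb was Tyrobp (r = 0.92), the adaptor DAP12 of myeloid receptors. Csf1r passed with all 3 chains, and Lyz2 with C1qb. The number of genes in either direction fell without Lo 3, from 216 to 24 for C1qa, from 159 to 20 for C1qb and from 72 to 5 for C1qc, and C1qa and C1qb then still passed with Csf1r but C1qc did not, nor C1qb with Lyz2. Without the 2 farthest tumors of each gene the numbers were 4, 0 and 6.

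Emr1 correlated positively with 84 genes (0.445%), and of the 9 other macrophage genes Csf1r alone passed. Its r was 0.67 with C1qb, 0.66 with Lyz2 and 0.65 with C1qa (adjusted p from 0.0713 to 0.0874 in the permutation test over all genes). The genes most like Emr1 were the small GTPase Cdc42 (r = 0.88), the lysosomal thioesterase Ppt1 (r = 0.85) and Rgs10 (r = 0.84), a regulator of G protein signalling. Without Lo 3, 20 genes passed in place of 104 in either direction, and Csf1r was not among them. Without Lo 3 and Hi 11, the tumors farthest from the median of Emr1, 72 genes passed, and Csf1r was among them (r = 0.82, adjusted p = 0.0343).

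Lyz2 and Cd14 had r = 0.69 with each other (permutation p = 0.00061, rho = 0.76, permutation p = 0.00012). The adjusted p of this r was 0.0463 among the genes tested with Lyz2 and 0.062 among those tested with Cd14. With Lyz2, 138 genes were positively correlated (0.731%), among them C1qa, C1qb and Cd14. Without Lo 3, C1qa no longer passed, and without Lo 4 and Lo 11, the tumors farthest from the median of Lyz2, 25 genes passed in place of 295 in either direction and none of the 10. The genes most like Lyz2 were the inhibitory Fc receptor gene Fcgr2b (r = 0.86), Csrp1 (r = 0.86) and Cd84 (r = 0.85), a receptor of the SLAM family.

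Cd14 was highest in a pair of Hi tumors. Its CPM was 443 in Hi 11 and 387 in Hi 8, against 104 to 256 in the other 18 tumors. With Cd14, 112 genes were positively correlated (0.593%) and 0 of the 9 other macrophage genes passed. By Spearman's rho, Lyz2 passed (rho = 0.76). For Csf1r, Emr1 and the C1q genes rho was between 0.60 and 0.74, and r between 0.41 and 0.51. For Csf1, Cd68 and Mrc1 rho was between -0.06 and 0.23. The genes most like Cd14 by r were the epithelial mucin gene Muc1 (r = 0.89), Ogfrl1 (r = 0.87) and Amigo2 (r = 0.87). Of 11 genes of macrophage lysosomes and secretion 2 passed with Cd14, the protease gene Ctsd (r = 0.77) and the lipoprotein gene Apoe (r = 0.76), and all 11 had r above 0 (median 0.60). Of 9 genes of CSF1 receptor ligands and signalling Plcg2 passed (r = 0.75). All 6 pan-leukocyte genes had r above 0 (median 0.54) and all 7 proliferation genes had r below 0 (median -0.46), with 0 past the threshold in either list. Of 7 luminal epithelial genes, 0 passed, and all had r above 0 (median 0.45), Epcam the adhesion molecule at 0.56 and Krt8 the keratin at 0.45. Of its partners in lipopolysaccharide sensing, Tlr4 had r = 0.67 (adjusted p = 0.0829) and Ly96 r = 0.23 (adjusted p = 0.686). Without Hi 8 and Hi 11 the r of Muc1 was 0.82, and 0 genes passed in place of 144 in either direction. The part of these cells in the level of Cd14 was not tested.

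Mrc1 had the second widest range of the 10 genes, after Cd14. Its CPM was 8.17 at the lowest (Lo 3), 16.1 at the median and 30.5 at the highest (Hi 6), with Lo 4 at 29.6. With Mrc1, 213 genes were positively correlated (1.13%) and 0 of the 9 other macrophage genes passed. The genes most like it were F13a1, the A chain of coagulation factor XIII (r = 0.95), the chemokine gene Ccl6 (r = 0.92) and the adhesion receptor gene Gpr133 (r = 0.92). Of 21 tested macrophage surface genes 3 passed with Mrc1, the hyaluronan receptor gene Lyve1 (r = 0.90), the folate receptor gene Folr2 (r = 0.85) and the lectin gene Clec10a (r = 0.85). Of 5 tested genes of alternative activation 2 passed, Ccl8 (r = 0.90) and Retnla (r = 0.72), while Arg1 had r = 0.21. Genes of other cell types were also correlated with Mrc1. Of 8 fibroblast genes, the collagen genes Col1a1, Col1a2 and Col3a1 and the proteoglycan gene Dcn passed (r from 0.71 to 0.85), the median r of the 8 was 0.68, and their summed CPM ranged from 623 in Lo 3 to 2312.4 in Lo 4. Of 6 adipocyte genes Fabp4 passed (r = 0.73) and all had r above 0 (median 0.44). No gene of the mast cell list (4 of 4 above 0, median 0.67) or the endothelial list (6 of 6 above 0, median 0.48) passed. The part of these cells in the result was not tested. Without Lo 3 and Hi 6, 88 genes passed in place of 222 in either direction, with Lyve1, Folr2, Clec10a, Ccl8, Col3a1 and Dcn among them and Retnla, Col1a1, Col1a2 and Fabp4 not.

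Cd68 had lower r with Emr1 and Csf1r than with the C1q genes, a difference that was not tested. Its r was -0.02 with Emr1 (permutation p = 0.924), 0.16 with Csf1r and between 0.47 and 0.50 with the C1q genes (adjusted p from 0.248 to 0.284). Its lowest CPM, 12.8 and 13.1, were in Hi 3 and Hi 4, and its highest, 20.9, in Hi 6. With Cd68, 5 genes were positively correlated (0.0265%) and 0 of the 9 others passed. The genes most like it were Adssl1 (r = 0.83), AI413582 (r = 0.83) and the secreted factor gene Angptl2 (r = 0.81). Without Hi 3 and Hi 4, 0 genes passed in place of 8 in either direction, and without Lo 3 13 passed.

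**Figure D4:**
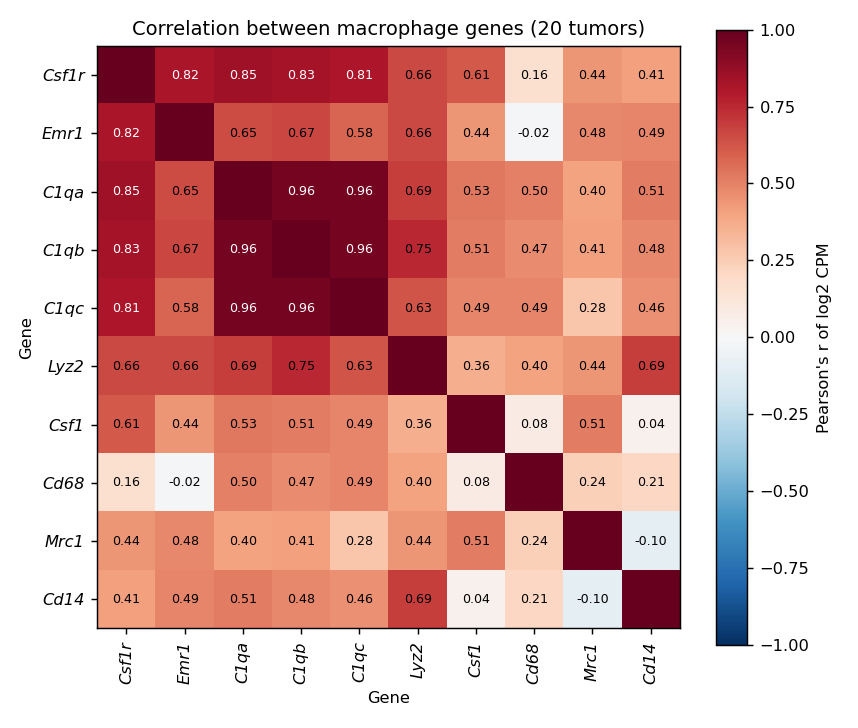
Pearson's r of log2 CPM over 20 tumors for each of the 45 pairs of the 10 genes (color from -1 to 1, values printed). Of the pairs, 43 were positive, with a median of 0.49, a highest value of 0.96 among the C1q genes and a lowest of -0.10 between Mrc1 and Cd14.

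For the ligand Csf1, 0 of 18882 genes (0%) passed the adjusted threshold in the permutation test, while 1463 had an unadjusted p under 0.05. Its CPM ran from 24.5 in Lo 3 to 39.4 in Hi 6, with a median of 31.8. Csf1r, at r = 0.61, ranked 153 of all genes for Csf1. The genes most like Csf1 were Lrmp (r = 0.80), Arhgap30 (r = 0.80), Sp110 (r = 0.79), Selplg, the ligand of P-selectin (r = 0.77), and Spi1, the gene of PU.1 (r = 0.77), each at an adjusted p of 0.142. Without Lo 2, in which Csf1 was high at 38.6 CPM and Csf1r low at 55 CPM, 16 genes passed, and on log2(RPKM + 1) 72 passed. Il34, the other ligand of the receptor, was at 6.71 ± 1.71 RPKM (SD, n = 20) and Csf1 at 6.24 ± 0.985, with a ratio of Csf1 to Il34 between 0.579 and 1.8. The r of Il34 with Csf1r was -0.40 (permutation p = 0.0784, rho = -0.34, permutation p = 0.139).

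Genes beyond the 10 were set against Csf1r in lists of pathway and cell type genes, beside the 0.842% of all genes that were positively correlated. Over the 20 lists 17 genes passed, all of them with a positive r. Without Lo 3, 0 of the 17 passed (adjusted p from 0.0539 to 0.221 in the permutation test), with r between 0.62 and 0.85, and 0 passed without Lo 3 and Hi 5. The counts and values that follow are over all 20 tumors. Of 9 tested genes of CSF1 receptor ligands and signalling 2 passed, Inpp5d, a lipid phosphatase (r = 0.83), and Tyrobp (r = 0.81), with a median of 0.52. Of 8 macrophage transcription factor genes Spi1 passed (r = 0.75). Of 21 macrophage surface genes 2 passed, the Fc receptor gene Fcgr3 (r = 0.81) and the chemokine receptor gene Ccr2 (r = 0.77). Of 11 genes of macrophage lysosomes and secretion 5 passed, among them the protease gene Ctss (r = 0.79) and Mpeg1, which encodes a pore-forming protein (r = 0.72). Of the 12 other complement genes Itgax, a chain of complement receptor 4, passed (r = 0.72). For genes of classical activation 0 of 6 passed, and for alternative activation 0 of 5. The receptor kinase gene Mertk, a macrophage marker, had r = -0.37 (adjusted p = 0.496).

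Markers of other cells were measured in the same way. Of 6 pan-leukocyte genes 4 passed with Csf1r, with Coro1a the highest at r = 0.86, and the median was 0.77. The r of these 4 genes was between 0.67 and 0.85 without Lo 3, and none passed then. Of 8 fibroblast genes 0 passed, and all had r above 0 (median 0.58). Of 7 luminal epithelial genes Krt19 passed (r = 0.80, and 0.72 without Lo 3) at a median of 0.10, and of 6 dendritic cell genes Siglech passed (r = 0.86, and 0.81 without Lo 3) at a median of 0.13. No gene passed of the T cell, B cell, NK cell, neutrophil, mast cell, basal, endothelial, adipocyte and proliferation lists. The summed CPM of the macrophage markers Csf1r, Emr1, Cd68, Mertk and Fcgr1 was between 83.8 and 125 in the 20 tumors. It was between 2.77 and 8.06 for the 7 tested T cell genes and between 1.02 and 2.03 for the 3 tested B cell genes. For the 4 tested neutrophil genes it was between 5.44 and 10.4. The sums cover different genes and do not compare amounts of cells. Csf1r alone had a median of 61.6 CPM, beside 107 for the macrophage sum. At least 1 tumor had a count of 0 for 4 of 8 neutrophil genes (Ly6g, Mmp8, Camp and Ngp). The same held for 2 of 8 T cell genes, 3 of 6 B cell genes and 3 of 5 NK cell genes. The part of these cells in the correlations was not tested.

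**Figure D5:**
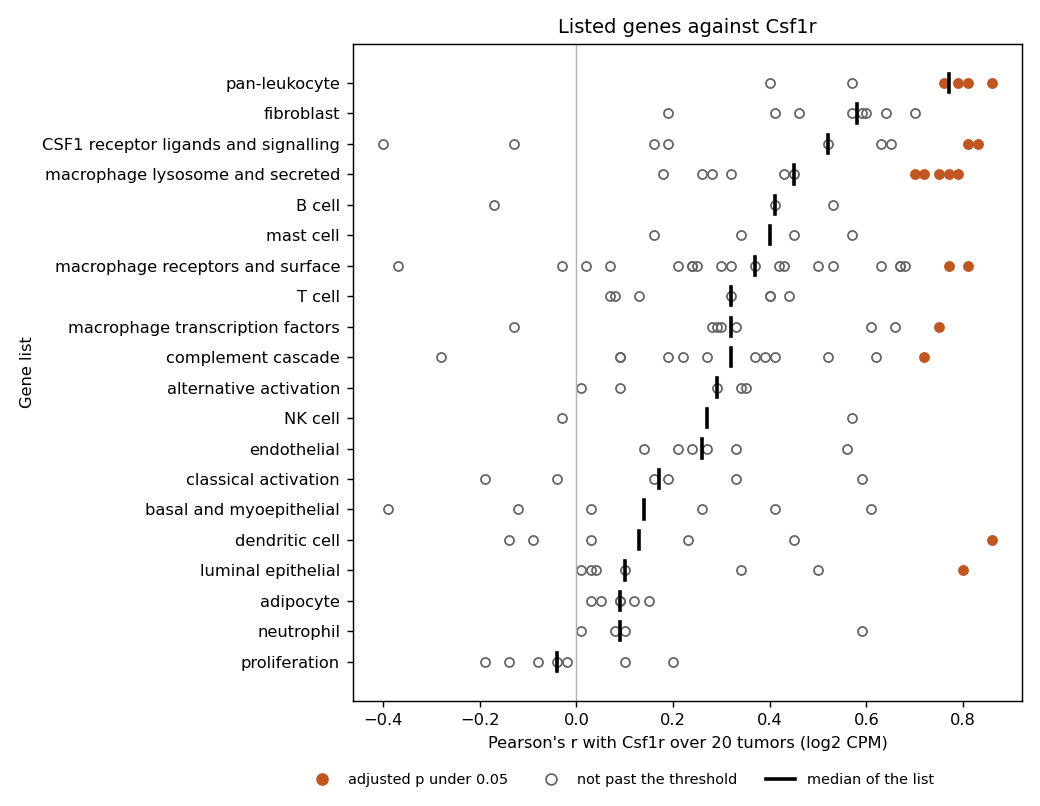
Pearson's r with Csf1r over 20 tumors (horizontal axis) for each tested gene of 20 lists (vertical axis, ordered by median), with filled points for genes past an adjusted p of 0.05, open points for the others and black bars for medians. The pan-leukocyte list has the highest median, 0.77, and the proliferation list the lowest, -0.04.

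Genes called most like another, here and above, are taken from those whose mean log2 CPM reached 1. The 5 genes most like Csf1r were AF251705 (r = 0.91), Cyth4 (r = 0.88), Slamf9, a SLAM family receptor (r = 0.87), the chemokine gene Cxcl16 (r = 0.87) and Cd74, the invariant chain of MHC class II (r = 0.87). Their r within Lo was between 0.88 and 0.95 and within Hi between 0.75 and 0.86. In the other direction 17 genes passed (0.09%), and the 5 lowest by the same rule were 2500002B13Rik (r = -0.78), Mzf1 (r = -0.77), Gm9988 (r = -0.77), Vegfa (r = -0.76) and D330050G23Rik (r = -0.76). Vegfa, the growth factor of blood vessels, was at 135 ± 50.1 CPM (SD, n = 20). Its r with Csf1r was -0.70 without the 2 farthest tumors, -0.74 within Lo and -0.83 within Hi. Without Lo 3, 3 of the 176 genes past the threshold still passed.

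The C1q genes lie on Chr4, whose total expression differs between these tumors. The study that deposited these data reports a lost copy of Chr4 in its karyotyped tumors. The 10 genes were therefore set against the total expression of Chr4. Each piece holds tumor cells and other cells, so Chr4 copies in tumor cells and the share of other cells cannot be told apart here. The Chr4 dosage of a tumor is the median, over the 739 genes of Chr4 whose mean CPM reached 5, of log2 CPM relative to the gene's median over the 20 tumors, minus the same over all autosomal genes, and it ran from -0.21 in Lo 2 to 0.37 in Hi 5. With the dosage, 781 of 18883 genes were positively correlated (4.14%). On Chr4, whose genes define the dosage, 34.2% of 1165 genes passed, and on the other chromosomes 2.16% of 17718. The C1q genes, each itself 1 of the 739 genes, were not among those that passed, at r = 0.41 for C1qa, 0.43 for C1qb and 0.40 for C1qc (adjusted p from 0.322 to 0.366 in the permutation test), beside a median r of 0.49 over Chr4 genes. Cdc42, which lies nearby at chr4:137319696-137357720 and was the gene most like Emr1, had r = 0.80 (adjusted p = 0.0012).

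Of the macrophage genes on other chromosomes, Csf1r (r = 0.68, permutation p = 0.00093, rho = 0.62, permutation p = 0.00387, adjusted p of r = 0.0235) and Emr1 (r = 0.64, permutation p = 0.00175, rho = 0.63, permutation p = 0.00305, adjusted p of r = 0.0366) passed. Genes of other lists passed too, beside 4.14% of all genes and 2.16% of those off Chr4. Among them were 2 of 6 pan-leukocyte genes (Ptprc at r = 0.77, Coro1a at r = 0.63) and 3 of 7 tested T cell genes (Cd3e, Cd3g and Cd8a, r from 0.65 to 0.76). The T cell genes had few reads, with counts from 3 to 38 for Cd3e and from 2 to 50 for Cd3g. Outside leukocytes, 2 of 6 basal genes passed (Oxtr at r = 0.79, Trp63 at r = 0.74). So did 1 of 8 fibroblast genes (Pdgfra at r = 0.75) and 1 of 7 luminal epithelial genes (Krt19 at r = 0.72). No B cell or NK cell gene passed. Cd68 had r = -0.44 (adjusted p = 0.297). The calls of Csf1r and Emr1 rest on single tumors. Without Hi 5, which had the highest dosage and the highest Csf1r, 469 genes passed in place of 1044 in either direction and none of the 10, and without Lo 3 none of the 10 passed either. Emr1 was also lost without each of 10 other tumors. Within Lo the r of Csf1r was 0.73 and within Hi 0.64, and without Lo 2 and Hi 5, the tumors farthest from the median dosage, it was 0.60 (permutation p = 0.00745, adjusted p = 0.137).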

How the data were processed

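RNA of 20 tumors was sequenced from TruSeq libraries in paired-end reads, trimmed to 100 bases and aligned to mm10. The values the authors deposited are counts of reads for each gene, not normalized, in 20 tumor columns. The submitters' processing notes name TopHat2 2.0.12 and featureCounts 1.4.4 as well as the build hg19, whose use is not given. Lanes are not given in the labels, and no batch could be set. Totals of 38765682 to 65465755 counts limit precision little for these genes, and with a count of 0 up to 3 counts are allowed for.

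Counts were filtered (filterByExpr, 18883 genes), scaled by TMM and tested between Lo and Hi with edgeR 4.0.16 (quasi-likelihood test) and DESeq2 1.42.0 in R 4.3.3. Correlations used log2 CPM with a prior count of 2 in Python 3.11.15 (numpy 2.4.6, pandas 2.3.3, scipy 1.17.1), two-sided permutation tests (100000 permutations, exact under 10 tumors) and Benjamini-Hochberg adjustment at 0.05 over all genes. RPKM was computed from the total count and the coding length given for each gene. The p-values measure the spread between tumors of different mice. Tests on simulated data recovered 194 of 200 genes changed by a log2 fold of 1 between Lo and Hi (3 false among 18883) and 182 of 200 genes with a planted r of 0.8 (10 false). In both, genes were drawn independently of each other, for the correlations as normal values. These rates need not hold for genes that vary together.

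The 10 genes and the 20 lists (165 genes, all found) were chosen with earlier results of these data known. Genes named are these, listed genes, Yam1 and AY036118, and, among genes whose mean log2 CPM reached 1, the 5 with the highest and the 5 with the lowest r with Csf1r, the 5 with the highest r with Csf1, the 3 with the highest r with each other gene and up to 3 per direction past the threshold between Lo and Hi (0 found). The later annotation is GENCODE M21, which shares its build with the files (42462 identifiers matched, 84.2% with the same start).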

Additional observations from a re-analysis of the deposited data

How the results depend on the processing

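The numbers of genes past the threshold moved more than the correlations behind them. The smallest p of the permutations bounds these numbers, since after adjustment no gene can pass unless several reach very low p together. Without Lo 3, Coro1a had r = 0.85 with Csf1r and did not pass (adjusted p = 0.0566 in the permutation test). What else moved the numbers was not tested. For Csf1r, 176 genes passed in either direction, but 2087 on log2(RPKM + 1), 80 with Spearman's rho and 0 without the 2 farthest tumors, within Lo and within Hi, where fewer tumors entered. Leaving out each tumor in turn gave 4 to 340 genes. Of the other macrophage genes 4 passed with Csf1r, and 0 did without the 2 farthest tumors, within Lo and within Hi, with 0 to 5 when each tumor was left out. For Csf1, 72 genes passed on log2(RPKM + 1) in place of 0, and 0 to 16 when each tumor was left out. For the Chr4 dosage 1044 genes passed, with 402 without the 2 farthest tumors, 8 within Lo, 130 within Hi and 469 to 1037 when each tumor was left out.

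For the other genes as reference, 3 settings were chosen after seeing the data. With Spearman's rho 0 genes passed for Cd68 in place of 8, 40 for Emr1 in place of 104, 133 for Mrc1 in place of 222, 43 for C1qb in place of 159 and 42 for C1qc in place of 72. Without the 2 farthest tumors it was 0 for Cd68, 88 for Mrc1, 4 for C1qa in place of 216, 0 for C1qb, 6 for C1qc, 25 for Lyz2 in place of 295, 72 for Emr1 and 0 for Cd14 in place of 144. Without Lo 3 it was 13 for Cd68, 20 for Emr1, 24 for C1qa, 20 for C1qb, 5 for C1qc, 167 for Mrc1, 393 for Lyz2 and 102 for Cd14.

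Between Lo and Hi, 1 gene passed with DESeq2 and 1 without the filter on low counts in place of 0, and 0 with each tumor left out, which was chosen after seeing the data. Fold changes near 0 changed sign. C1qa was at 0.00 without the filter and with DESeq2. Leaving out each tumor in turn moved Mrc1 from -0.04 to 0.24, C1qa from -0.05 to 0.04, C1qb from -0.07 to 0.01, C1qc from -0.07 to 0.03 and Lyz2 from -0.08 to 0.03. Near-zero r also changed sign. With Csf1, Cd68 was at -0.10 without the 2 farthest tumors and -0.09 within Hi (-0.03 to 0.21 with each tumor left out), and Cd14 at -0.03 and 0.00 (-0.12 to 0.26). Mrc1 had r = -0.08 with the Chr4 dosage within Hi (-0.12 to 0.15 with each tumor left out). None of these passed the threshold in either form. Over all single values of the 10 genes, 955 alternatives kept direction and side of the threshold, 39 lost the threshold, 4 gained it and 36 changed sign.

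The 9 numbers that Lo tumors carry recur in Hi, although no mouse gave more than 1 tumor. Deviations from group means had r from -0.418 to 0.208 between same-numbered tumors, over 0.1 in 3 of 9 pairs. Tumors of different numbers were not compared, so these values cannot tell whether the numbers pair the tumors. In a fit with a replicate block for the number, 0 genes passed (872 at an unadjusted p under 0.05), and the fold changes of C1qa and C1qc were both 0.01.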
